A study of Mus musculus with 12 samples.

Results

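The mir-148 and mir-152 family holds the mouse miRNA hairpins mmu-mir-148a, mmu-mir-148b and mmu-mir-152 (below without the species prefix), whose 3p arms carry the same seed. The family was chosen by hairpin name, with its levels in these libraries already known: in each of 12 small RNA libraries, genome-matched and unmatched reads assigned to a hairpin were summed and expressed per 1000000 miRNA reads (CPM). All 3 hairpins had reads in every library, out of 1050 miRNA hairpins with at least 1 read in a library. Because the levels were known when the family was chosen, the values of the 3 hairpins are given below as a description. No p-value is printed for them, and whether a member passed a threshold is stated beside the share of all hairpins that did, as part of that description and not as evidence.

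Sperm came from C57BL6/J males kept on a control diet (CD, AIN-93G, 16% fat by the labels) or a high-fat diet (HFD, D12492, 69% fat by the labels) for 7 weeks, by the labels from 4 weeks of age. The study's text states another fat content for the HFD and another starting age than the labels do. Each sperm library was a pool of 3 mice, with 3 libraries per diet. The other libraries came from TM4, an established mouse Sertoli cell line, the somatic cells that nurse germ cells in the testis. TM4 cells were left as controls (Ctrl), treated with 10 µM Compound C, an inhibitor of the energy sensor AMPK, for 12 h (CC), or transfected with a plasmid carrying the full-length coding sequence of Ang, which encodes the ribonuclease angiogenin (Ang OE), with 2 libraries each. CC and Ang OE were compared with the same Ctrl libraries, and the labels do not say whether the 2 libraries of a TM4 group came from separate cultures. The study adjusted its cell line data for batch effects of sample preparation with ComBat-seq. Its text does not name the batches, so a batch that follows treatment cannot be told apart from it here.

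A miRNA is cut from its hairpin by Drosha and Dicer, and 1 arm is loaded into an Argonaute protein, where the seed (bases 2 to 8 of the mature miRNA) pairs with target mRNAs and lowers their translation and stability. The mir-148 and mir-152 family is known for targeting Dnmt1, the enzyme that copies DNA methylation after replication. miRNAs in sperm have been studied as possible carriers of paternal diet effects, which is the setting of the diet comparison here.

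The mature sequences are shown because the family is defined by them; they were taken from RefSeq on GRCm38.p6, which is mm10, the build named for the files, and all 3 hairpins were matched. The 3p arms are printed 5′ to 3′ with the seed in capitals.
miR-148a-3p: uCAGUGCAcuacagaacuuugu
miR-148b-3p: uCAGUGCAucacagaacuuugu
miR-152-3p: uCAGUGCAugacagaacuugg
The seed CAGUGCA occurred in 3 of the 1738 mature mouse miRNAs of that set, and these were the 3 members. Counted from 1 at the 5′ end, miR-148a-3p and miR-148b-3p differed by C9U and U10C, miR-148a-3p and miR-152-3p by C9U, U10G and U20G, and miR-148b-3p and miR-152-3p by C10G and U20G. The 3p arms were therefore 85.7% to 90.9% identical over their shared length, whereas the whole hairpins were 57.4% to 68.9% identical.

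The 5p arms are shown because they do not all share a seed, which is again in capitals.
miR-148a-5p: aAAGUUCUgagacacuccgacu
miR-148b-5p: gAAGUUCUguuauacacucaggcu
miR-152-5p: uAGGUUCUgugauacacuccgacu
miR-148a-5p and miR-148b-5p shared the seed AAGUUCU, and miR-152-5p had AGGUUCU. The deposited values are totals per hairpin, so the arms are not separated in the levels below. mir-148a and mir-148b shared a run of 15 bases, the length of the shortest reads kept by the authors, whereas mir-152 shared runs of at most 12 bases with mir-148a and 11 with mir-148b. The closest 15-base windows of mir-152 and either other member differed at 1 base, and the authors allowed 1 mismatch. A read that fits several entries is divided among them in these tables. All 36 member values were whole numbers, and all member reads matched the genome, so a planned comparison of the matched share between diets was void.

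The hairpin of mir-148a lies on the minus strand at chr6:51269812-51269910, that of mir-148b on the plus strand at chr15:103285125-103285221 and that of mir-152 on the plus strand at chr11:96850393-96850465 (GRCm38.p6). In the GENCODE annotation, mir-148b lies in an intron of Copz1 in 26 of 26 transcripts, and mir-152 in an intron of its paralog Copz2 in 13 of 13. Both genes encode zeta subunits of the COPI vesicle coat. mir-148a lies in an intron of the lncRNA gene Gm38821 in 4 of 4 transcripts and overlaps an exon of the lncRNA gene Gm66906; RefSeq lists Gm38821 as protein coding.

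The seed match TGCACTG, the reverse complement of the seed, was searched on the transcript strand in the longest annotated 3′ UTR of each gene. It was present in 16.1% of 20960 genes, and followed by an A in 4.47% of genes. The 3′ UTR of Dnmt1, 872 bases long, held 1 match at bases 23 to 29, followed by an A. The site is shown because it is the link between this family and Dnmt1, with the match in capitals.
Dnmt1: acccagagccccacgTGCACTGatgttttt
Among 2746 genes with 3′ UTRs of similar length, 8.89% held a match. No match was found in the 3′ UTRs of the de novo methyltransferase genes Dnmt3a and Dnmt3b, their cofactor Dnmt3l, the tRNA methyltransferase gene Trdmt1, Ang or the host gene Copz2. The host gene of mir-148b, Copz1, held 1 match at bases 2575 to 2581 of its 3′ UTR, not followed by an A; 23.0% of genes with 3′ UTRs of similar length held a match. A match is a description of the sequence, and these libraries hold no measurement of the mRNAs.

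Clean reads numbered 31710445 to 41532413 in sperm and 51457711 to 64038150 in TM4, of which 11412945 to 14822686 and 27651384 to 35704399 were miRNA reads. The members had between 846 and 781330 reads in a library, and the Wilson 95% interval of a member's share of miRNA reads was at most 6.74% of the value to either side, covering counting error only. HFD 1 stood apart: its chi-square per degree of freedom over hairpins was 1138 against HFD 2 and 1461 against HFD 3, whereas the other sperm pairs within a diet lay between 257 and 312.5. Diet results are therefore given with HFD 1 and also without it. The labelled cell types were checked against marker hairpins. The 12 germ cell hairpins all had reads in every sperm library, summing to 3760 to 11018 CPM. Hairpins of other cells were also present in sperm: 5 of 5 epithelial hairpins summed to 8946 to 14327 CPM, 4 of 4 red blood hairpins to 25239 to 50595 CPM, and 3 of 4 white blood hairpins to 580 to 1422 CPM. In TM4, mir-202, the Sertoli lineage hairpin on the list, was at 0 to 0.178 CPM, against 4.86 to 59.8 CPM in sperm. This hairpin thus did not bear out the Sertoli label of TM4. The epithelial list was at 1.28 to 2.38 CPM in TM4 and the white blood list at 2.23 to 4.30 CPM.

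mir-148a was by far the most abundant member in all libraries and one of the leading miRNAs in sperm. It ranked 3 or 4 among all hairpins in sperm, 15 in Ctrl and CC and 10 in Ang OE. mir-148b ranked 129 to 141 in sperm and 81 to 86 in TM4, and mir-152 ranked 136 to 149 and 86 to 91. As a share of the family's reads, mir-148a made up 99.6% ± 0.0236 (SD, n = 3) in CD, 99.6% ± 0.0717 (n = 3) in HFD, 89.3% ± 0.143 (n = 2) in Ctrl, 87.6% ± 0.930 (n = 2) in CC and 94.6% ± 0.215 (n = 2) in Ang OE. Levels are reads per hairpin, since 1 read stands for 1 small RNA. Adapter ligation is known to favour some RNA ends, so a ratio between hairpins is compared below between libraries and not read as a ratio of molecules.

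The level of mir-148a was 37390, 37836 and 40561 CPM in CD 1 to 3, and 34733, 46058 and 52712 CPM in HFD 1 to 3. In TM4 it was 11697 and 10266 CPM in Ctrl, 9207 and 11108 CPM in CC, and 20172 and 20544 CPM in Ang OE. The order of group means was HFD, CD, Ang OE, Ctrl and CC; the libraries of HFD and CD overlapped, as did those of Ctrl and CC, and the Ang OE libraries overlapped with no other group.

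The level of mir-148b was 84.6, 92.5 and 89.6 CPM in CD 1 to 3, and 117.2, 99.98 and 111.5 CPM in HFD 1 to 3. It was 796.9 and 690.6 CPM in Ctrl, 753.8 and 832.8 CPM in CC, and 650.0 and 597.4 CPM in Ang OE. The order was CC, Ctrl, Ang OE, HFD and CD, the reverse of mir-148a between the sources, and among neighbours only the libraries of CC and Ctrl overlapped.

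The level of mir-152 was 79.1, 74.1 and 71.8 CPM in CD 1 to 3, and 61.5, 84.3 and 89.1 CPM in HFD 1 to 3. It was 584.3 and 547.5 CPM in Ctrl, 624.1 and 639.4 CPM in CC, and 546.4 and 551.2 CPM in Ang OE. Its order was the same as that of mir-148b, with overlap between Ctrl and Ang OE and between HFD and CD, and none between CC and Ctrl.

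**Figure D1:**
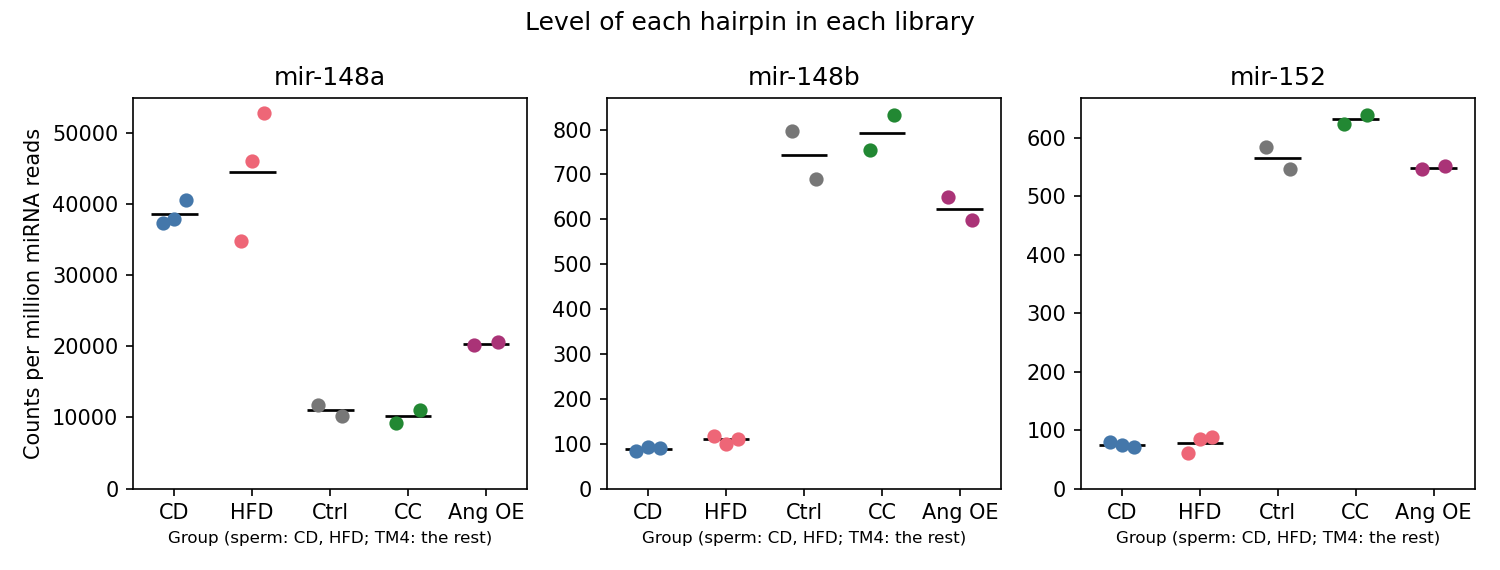
Level of mir-148a, mir-148b and mir-152 in CPM (vertical axis, from 0, a scale of its own in each panel) in each of the 12 libraries by group (horizontal axis); points are libraries and horizontal bars are group means. mir-148a lies at 34733 to 52712 CPM in sperm and 9207 to 20544 CPM in TM4, whereas mir-148b and mir-152 are lower in sperm than in TM4.

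The 3 hairpins thus did not share 1 pattern across the sources. On the CPM scale the mean of mir-148a was 3.51-fold higher in CD sperm than in Ctrl TM4, while mir-148b was 8.37-fold and mir-152 7.54-fold lower in CD. No CD library overlapped with a Ctrl library for any member, against 34.4% of 590 hairpins that did not overlap with CD higher and 59.7% with CD lower. In edgeR's quasi-likelihood fit with TMM normalization, which sets aside the hairpins that differ most when it scales the libraries, the log2 fold change of CD over Ctrl was 3.15 ± 0.16 (SE) for mir-148a, -1.73 ± 0.15 for mir-148b and -1.57 ± 0.16 for mir-152. All 3 passed an adjusted p of 0.05. Of the 590 hairpins tested 77.1% passed, with 40.7% higher and 36.4% lower in CD, so nothing is read from that count. The same changes were 1.81, -3.06 and -2.92 when total miRNA reads set the scale, and the median over all hairpins moved from -0.13 to -1.47, so the sizes depend on the scale but the directions of the members do not. On that scale 90.8% of hairpins passed, 32.9% higher and 58.0% lower in CD. With TMM, the value of mir-148a was 2.36 without Ctrl 1 and 2.204 without Ctrl 2, that of mir-148b -2.52 and -2.69, and that of mir-152 -2.42 and -2.48. mir-10a and mir-10b, chosen after their values were seen, together took 57.0% to 62.6% of the miRNA reads in sperm and 24.1% to 27.5% in TM4; their part in the CPM differences was not tested. Source and library batch cannot be told apart in this comparison, and in such bulk samples fewer cells of a type and less RNA per cell cannot be told apart either.

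The ratio of mir-148a to mir-148b reads within a library does not depend on the scale. It was 442, 409 and 453 in CD 1 to 3, and 296, 461 and 473 in HFD 1 to 3. It was 14.7 and 14.9 in Ctrl, 12.2 and 13.3 in CC, and 31.0 and 34.4 in Ang OE. Sperm libraries were therefore apart from all TM4 libraries, and Ang OE was apart from the other TM4 groups. The ratio of mir-148b to mir-152 reads, by contrast, lay between 1.07 and 1.36 in 11 libraries of both sources, and HFD 1 was highest at 1.90. The pair hosted in Copz1 and Copz2 thus had a similar ratio in sperm and TM4, while the ratio of mir-148a to mir-148b differed between them.

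**Figure D2:**
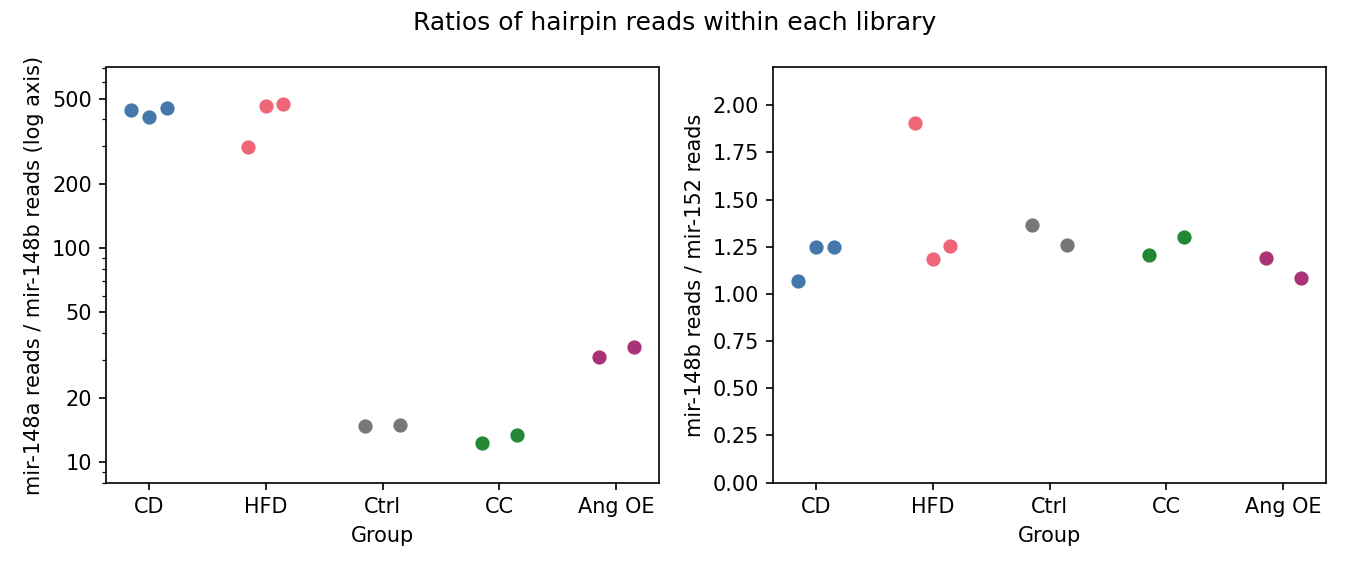
Ratio of mir-148a to mir-148b reads (left, log axis) and of mir-148b to mir-152 reads (right, linear axis from 0) in each library, by group on the horizontal axis; each point is a library. The left ratio is 296 to 473 in sperm, 12.2 to 14.9 in Ctrl and CC and 31.0 to 34.4 in Ang OE, and the right ratio is 1.07 to 1.36 in all libraries but HFD 1, at 1.90.

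The diet comparison asks whether a high-fat diet alters the small RNAs of sperm. None of the 3 hairpins was called between HFD and CD, and nor was any other: 0 of 451 hairpins (0%) passed an adjusted p of 0.05 in edgeR's quasi-likelihood test, 31 had an unadjusted p below 0.05, and DESeq2 called 8, none of them a member. Without HFD 1, edgeR called 0 of 446, and 80 had an unadjusted p below 0.05. With TMM, the log2 fold change of HFD over CD was 0.09 ± 0.19 (SE) for mir-148a, 0.19 ± 0.17 for mir-148b and -0.05 ± 0.22 for mir-152. With total miRNA reads as the scale the values were 0.21, 0.30 and 0.06, and the median over all hairpins moved from -0.01 to 0.10, so mir-152 has no direction that holds on both scales.

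The spread within HFD was wider than within CD for all 3 members. The coefficient of variation of the CPM was 4.45% in CD and 20.4% in HFD for mir-148a, 4.54% and 7.98% for mir-148b, and 5.01% and 18.8% for mir-152. HFD 1 lay at an end of each HFD range: it had the lowest mir-148a and mir-152 of all 6 sperm libraries and the highest mir-148b. Hairpins of other cells also varied between the HFD libraries. HFD 1 had the lowest epithelial sum (8946 CPM) and the lowest smooth muscle sum (30612 CPM, nearly all mir-143) of the 6 libraries, and the highest red blood sum (50595 CPM). HFD 3, with the highest mir-148a and mir-152, had the highest epithelial sum (14327 CPM) and smooth muscle sum (56120 CPM) and the lowest red blood sum (25239 CPM). In CD 1 to 3 the epithelial sums were 9281, 10573 and 9325 CPM. Smooth muscle was at 50955, 42696 and 33595 CPM, falling as mir-148a rose and as mir-152 fell. Red blood was at 30511, 26237 and 34490 CPM, highest in CD 3, which also had the highest mir-148a of CD. The relations seen between HFD 1 and HFD 3 thus did not all hold in CD. The whole germ cell list summed to 5501, 3778 and 3978 CPM in HFD 1 to 3, within the 3760 to 11018 CPM of CD. Without its hairpin mir-34c it was at 4060 CPM in HFD 1. HFD 2 and HFD 3 were then at 1883 and 1613 CPM, below the 2243 to 8256 CPM of the CD libraries. The part of these lists in the members' values was not tested. Without HFD 1, the HFD mean was 1.28-fold the CD mean for mir-148a, 1.19-fold for mir-148b and 1.16-fold for mir-152 in CPM, and the remaining 2 HFD libraries lay above all 3 CD libraries for each member, as they did for 20.9% of the 446 hairpins tested without HFD 1. The log2 fold changes with TMM were then 0.34 ± 0.15, 0.24 ± 0.16 and 0.19 ± 0.18, and no member was called.

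With all libraries, mir-148b was the one member whose HFD and CD libraries did not overlap in CPM, with a mean of 109.5 ± 8.7 (SD, n = 3) in HFD and 88.9 ± 4.0 (n = 3) in CD; 3.99% of the 451 hairpins did not overlap with HFD higher. The white blood list moved with it: the sum was 580 to 676 CPM in CD and 780 to 1422 CPM in HFD, with 3 of its 4 hairpins detected and mir-142b without reads in any library. Its leading hairpin mir-142a, a marker of blood-forming cells, was at 521, 575 and 484 CPM in CD and at 1179, 688 and 792 CPM in HFD. Its part in the mir-148b values was not tested.

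The hairpins most like each member over the 6 sperm libraries were found by Pearson's r of log2(CPM + 1) among hairpins with a mean of at least 100 CPM; the libraries share a protocol and the r values are a description. mir-148a was most like mir-26b (r = 0.98) and mir-30e (r = 0.97), and without the 2 libraries farthest from the median of the other hairpin these were 0.76 and 0.80. mir-148b was most like mir-744 (r = 0.97) and mir-142a (r = 0.94), which were 0.93 and 0.99 without such libraries. mir-152 was most like mir-136 (r = 0.99) and mir-101a (r = 0.98), and both were 0.99 without such libraries. Between members, r was 0.85 for mir-148a and mir-152, and 0.59 or 0.58 without the 2 libraries farthest from the median of one or the other. It was 0.24 for mir-148a and mir-148b and then 0.84 or -0.75, and -0.17 for mir-148b and mir-152 and then 0.46, so neither pair has a sign that holds. The level of mir-26b was 1428, 1410 and 1412 CPM in CD and 1326, 1659 and 1812 CPM in HFD, so HFD 1 was the lowest and HFD 3 the highest library for both mir-26b and mir-148a.

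**Figure D3:**
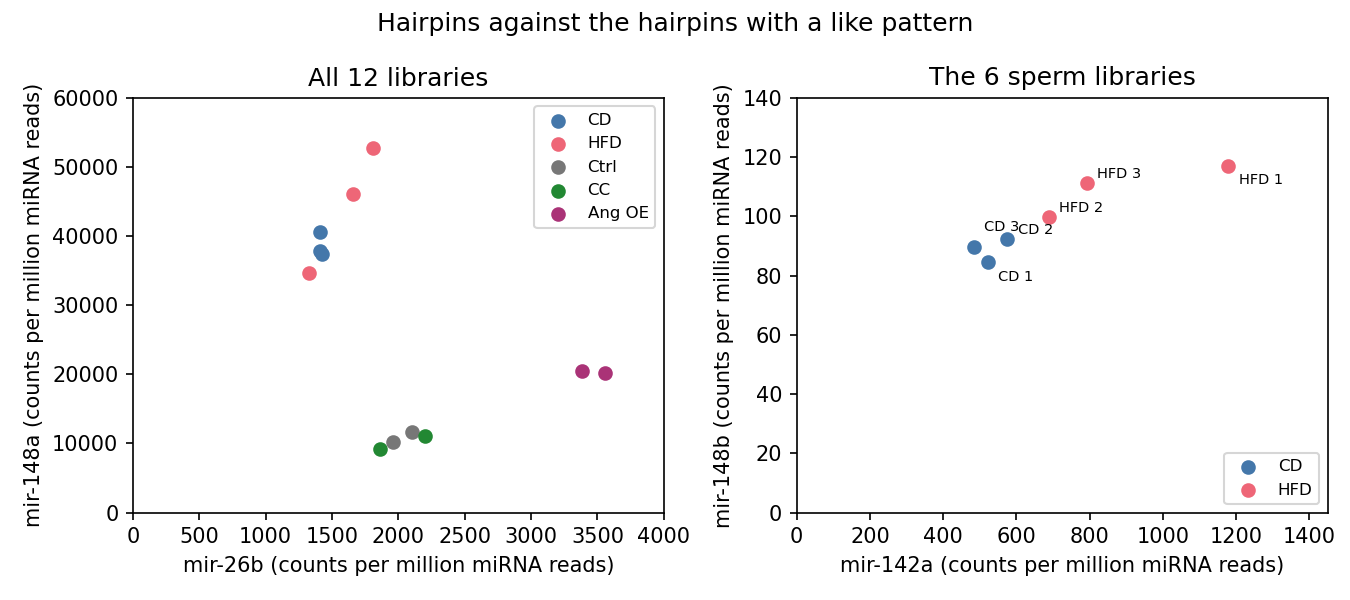
Left, mir-148a against mir-26b in all 12 libraries; right, mir-148b against mir-142a in the 6 sperm libraries, each point a library, with linear axes from 0 in CPM. In the left panel HFD 1 is the lowest sperm library and Ang OE lies apart from the other TM4 libraries on both axes; in the right panel the HFD libraries lie at 688 to 1179 CPM of mir-142a and the CD libraries at 484 to 575 CPM.

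The Compound C comparison asks whether AMPK inhibition alters the small RNAs of TM4 cells. No member was called between CC and Ctrl, and 22 of 533 hairpins (4.13%) were. That count was 0 without CC 1 and 0 without CC 2 in edgeR, where 76 and 68 hairpins had an unadjusted p below 0.05, and 35 with ComBat-seq or with the replicate number as a block. The log2 fold change of CC over Ctrl with TMM was -0.11 ± 0.11 (SE) for mir-148a, 0.10 ± 0.11 for mir-148b and 0.17 ± 0.10 for mir-152. The libraries overlapped for mir-148a and mir-148b. Those of mir-152 did not, with CC higher in CPM, as was the case for 23.1% of hairpins.

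The angiogenin comparison asks what overexpression of Ang does to the small RNAs of TM4 cells. The labels name no empty plasmid for Ctrl, so transfection and Ang itself cannot be told apart in comparisons with Ang OE. mir-148a had the largest difference of the 3 members on both scales: its mean was 20358 ± 263 CPM (SD, n = 2) in Ang OE, 10982 ± 1012 CPM (n = 2) in Ctrl and 10158 ± 1344 CPM (n = 2) in CC, which is 1.85-fold Ctrl and 2.00-fold CC. With TMM, the log2 fold change of mir-148a was 1.17 ± 0.11 (SE) over Ctrl and 1.27 ± 0.11 over CC, and with total miRNA reads 0.89 and 1.00. It was called in each case. Against Ctrl, 38.3% of 533 hairpins were called with TMM, 24.2% higher and 14.1% lower in Ang OE, and 41.3% with total miRNA reads, 15.2% higher and 26.1% lower. Against CC, 41.5% were called with TMM, 26.3% higher and 15.2% lower, and 42.4% with total miRNA reads, 15.6% higher and 26.8% lower. The Ang OE libraries lay above all Ctrl libraries in 25.1% of hairpins and above all CC libraries in 26.5%. Nothing is read from the member's call, since the family was chosen with it known, and these comparisons share the Ang OE libraries.

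mir-148b and mir-152 had smaller values. With TMM, the log2 fold change of Ang OE over Ctrl was 0.02 ± 0.11 (SE) for mir-148b and 0.23 ± 0.10 for mir-152, and neither was called. With ComBat-seq mir-152 was called at 0.22, as were 282 of 547 hairpins, 170 of them higher in Ang OE. With total miRNA reads the values were -0.25 and -0.04, so neither has a direction that holds on both scales. The median over all hairpins moved from 0.06 to -0.21 between the scales, and the calls from 129 higher and 75 lower to 81 higher and 139 lower. In CPM the Ang OE libraries lay below Ctrl for mir-148b, as for 45.2% of hairpins, and overlapped with Ctrl for mir-152. Against CC the log2 fold changes with TMM were -0.08 for mir-148b and 0.07 for mir-152. With total miRNA reads they were -0.35, which was called, and -0.20, which was not; the calls over all hairpins went from 140 higher and 81 lower to 83 higher and 143 lower. In CPM the Ang OE libraries lay below both CC libraries for mir-148b and mir-152, as for 46.2% of hairpins.

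**Figure D4:**
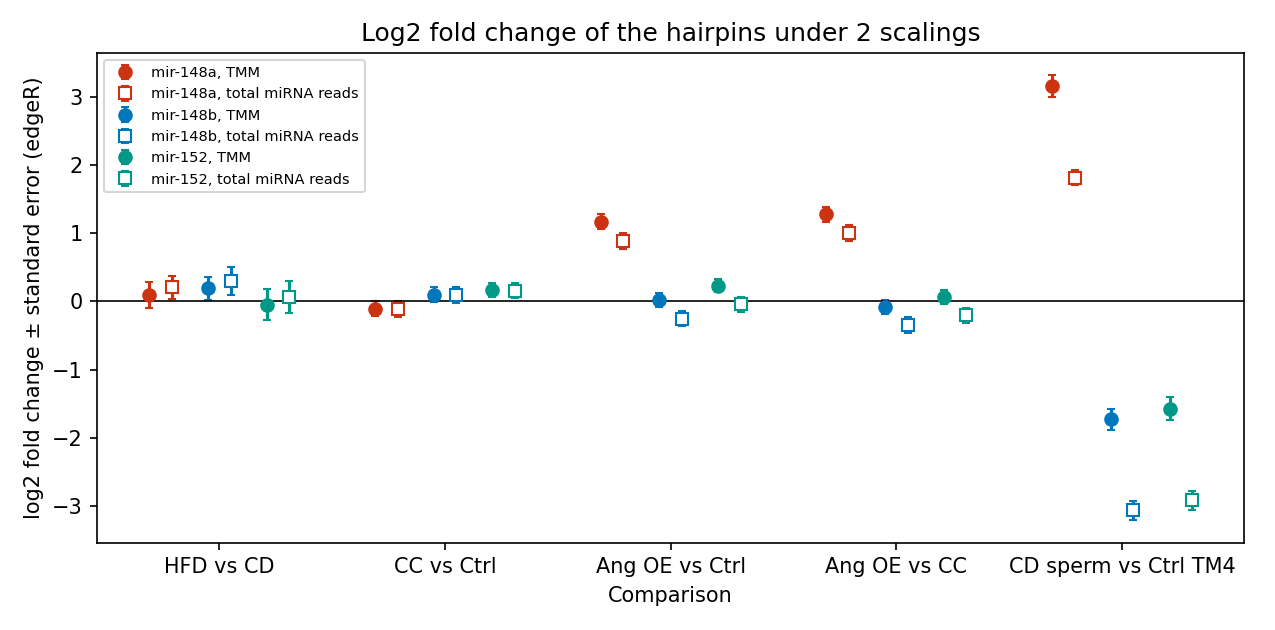
Log2 fold change of each member in 5 comparisons (vertical axis, bars are standard errors of edgeR's fit) with TMM normalization (filled circles) and with total miRNA reads as the library size (open squares). mir-148a is at 1.17 and 0.89 for Ang OE over Ctrl, while mir-148b is at 0.02 and -0.25; in CD sperm against Ctrl TM4, mir-148a is above 0 and both other members are below 0 on each scale.

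Markers of other cells were compared between the same libraries. The smooth muscle list, which is mostly mir-143, summed to 49715 to 55567 CPM in Ctrl, 51422 to 73465 CPM in CC and 94556 to 129040 CPM in Ang OE, with 3 of 3 hairpins detected in each. The germ cell list summed to 960 to 1090 CPM in Ctrl and CC and to 1964 to 2067 CPM in Ang OE, with 5 to 10 of 12 hairpins detected. That difference was in mir-34c: the other 11 hairpins together were at 106 to 110 CPM in Ctrl and CC and at 111 and 130.5 CPM in Ang OE, with 2 to 7 of them at 0. The red blood list was lower in Ang OE, at 1762 to 1784 CPM, against 2737 to 2857 CPM in Ctrl and 1879 to 1956 CPM in CC, with 3 or 4 of 4 hairpins detected. The epithelial, white blood and Sertoli lineage lists were near 0 in all TM4 libraries, as given above. The part of these lists in the mir-148a values was not tested.

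Over the 6 TM4 libraries, mir-148a was again most like mir-26b (r = 0.99), followed by mir-34c (r = 0.99), and these were 0.89 and 0.95 without the 2 farthest libraries. The level of mir-26b was 2099 and 1962 CPM in Ctrl, 1859 and 2198 CPM in CC, and 3561 and 3386 CPM in Ang OE. mir-34c, a hairpin of the germ cell list, was at 980 and 940 CPM in Ctrl, 853 and 943 CPM in CC, and 1956 and 1834 CPM in Ang OE. In both hairpins, as in mir-148a, the Ang OE libraries stood apart above the others. mir-148b was most like mir-31 and mir-151 (both r = 0.93), which were 0.78 and 0.69 without such libraries, and the Ang OE libraries were the lowest for all 3. mir-152 was most like mir-183 (r = 0.98) and mir-182 (r = 0.93), which both came to 0.96, and here the CC libraries were the highest. The level of mir-183 was 19794 and 15747 CPM in Ctrl, 22175 and 27033 CPM in CC, and 16192 and 15487 CPM in Ang OE. Between members, r was 0.82 for mir-148b and mir-152, and 0.82 or 0.74 without the 2 farthest libraries. It was -0.76 for mir-148a and mir-148b and then -0.65 or 0.53, and -0.63 for mir-148a and mir-152 and then -0.41 or -0.11. By Pearson's r over all 6 libraries mir-26b was thus the nearest hairpin to mir-148a in each source, although without the 2 farthest libraries mir-30e in sperm and mir-34c in TM4 had a higher r, while the nearest hairpins of mir-148b and mir-152 differed between sperm and TM4.

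Other miRNAs reported to target DNA methyltransferase genes were listed for comparison: the mir-29 and mir-101 hairpins and mir-126, mir-140, mir-143, mir-185, mir-217, mir-342 and mir-377, 14 hairpins in all. Between HFD and CD, 12 of the 14 were tested and 0 were called, with 0% called over all hairpins by edgeR's test. Their median log2 fold change was 0.18, against -0.01 over all hairpins. The most abundant were mir-143, with 0.02 ± 0.27 (SE), and mir-126a, with 0.21 ± 0.19. Without HFD 1, 0 of the 12 were called by edgeR and 10 had an unadjusted p below 0.05, as did 80 of all 446 hairpins. Those 10 did not share a direction: mir-342 (-0.62) and mir-377 (-0.78) were lower in HFD. The median of the 12 was then 0.45, against 0.02 over all hairpins, with mir-143 at 0.33 ± 0.22 and mir-126a at 0.40 ± 0.17. Between CC and Ctrl, 1 of 11 fell and none rose, where 1.88% of all hairpins were called lower in CC. It was mir-140, a hairpin best known from cartilage, at 6106 ± 83.8 CPM (SD, n = 2) in CC and 8948 ± 992 CPM (n = 2) in Ctrl, with a log2 fold change of -0.54 ± 0.12 (SE, edgeR adjusted p = 0.0106). That call was lost without CC 1, CC 2 or Ctrl 1, with edgeR adjusted p-values up to 0.188, and with ComBat-seq, at 0.0510. The median of the list was 0.09, against -0.03 over all hairpins.

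Between Ang OE and Ctrl, 7 of 11 listed hairpins rose and 2 fell with TMM, and 6 rose and 2 fell with total miRNA reads. Over all hairpins 24.2% were called higher and 14.1% lower with TMM, and 15.2% and 26.1% with total miRNA reads. The median of the list was 1.16 with TMM and 0.88 with total miRNA reads, against 0.06 and -0.21 over all hairpins. mir-101b was at 1410 ± 242 CPM (SD, n = 2) in Ang OE and 656 ± 39.4 CPM (n = 2) in Ctrl, a log2 fold change of 1.38 ± 0.14 (SE, edgeR adjusted p = 1.15e-06). mir-143 had the same log2 fold change of 1.38 ± 0.16 (adjusted p = 4.08e-06), mir-126a, known from endothelium, 1.25 ± 0.13 (adjusted p = 1.15e-06), mir-29b-1 1.21 ± 0.17 (adjusted p = 3.69e-05) and mir-29b-2 1.16 ± 0.17 (adjusted p = 4.06e-05), all from edgeR. The 2 mir-29b hairpins give the same mature 3p miRNA, so their counts depend on how shared reads were divided. mir-140 fell by 0.40 on the log2 scale (adjusted p = 0.0125) and mir-342 by 0.31 (adjusted p = 0.0491). The call of mir-140 was lost without Ang OE 1 or Ctrl 1, and that of mir-342 in 4 of 6 fits with a library left out, with edgeR adjusted p-values up to 0.0831 and 0.211. The call of mir-342 was also lost with no filter, at an edgeR adjusted p of 0.096. The listed hairpins, like the members, thus did not move as 1 group in Ang OE.

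Against CC, 8 of the 11 rose in Ang OE and 0 fell with TMM, where 26.3% of all hairpins were called higher and 15.2% lower by edgeR. With total miRNA reads 6 rose and 2 fell, against 15.6% and 26.8% of all hairpins. The log2 fold changes of Ang OE over CC with TMM were 1.29 ± 0.14 (SE) for mir-101b, 1.40 ± 0.13 for mir-126a, 1.13 ± 0.16 for mir-143, 1.03 ± 0.17 for mir-29b-1 and 0.93 ± 0.17 for mir-29b-2, and all 5 were also called with total miRNA reads. mir-101a, at a mean of 78.2 CPM, was at 1.94 ± 0.15 and was called on both scales. Of the other calls, those of mir-29c and mir-185 were each lost in 4 of 6 fits with a library left out and in 6 of 9 other alternatives, with adjusted p-values up to 0.48 and 0.42. Between CD sperm and Ctrl TM4, 6 of 12 were higher in CD and 6 lower with TMM, and 3 were higher and 6 lower with total miRNA reads. The shares over all hairpins were 40.7% higher and 36.4% lower with TMM, and 32.9% and 58.0% with total miRNA reads, so nothing is read from these counts. The log2 fold change of CD over Ctrl was 5.57 with TMM and 4.22 with total miRNA reads for mir-101a, and 4.26 and 2.93 for mir-126a. It was -0.91 and -2.26 for mir-101b, -3.06 and -4.39 for mir-140, -1.62 and -2.95 for mir-29a, and -0.56 and -1.89 for mir-342. That of mir-143 was 1.05 with TMM, where it was called, and -0.29 with total miRNA reads, where it was not, so it has no direction that holds on both scales; its call was also lost with no filter and without Ctrl 1 or Ctrl 2. The call of mir-342 was lost when at least 100 reads were required. Opposite directions between sperm and TM4, as seen for mir-148a and its relatives, were thus also present between mir-101a, at 664 CPM in CD and 35.6 CPM in Ctrl, and mir-101b, at 137 CPM and 656 CPM; this pair was chosen after its values were seen.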

How the data were processed

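Small RNA of sperm and TM4 cells was sequenced (Illumina, TruSeq Small RNA kit). Per the labels, the authors used FastQC 0.12.0, Trimmomatic 0.40 and the mm10 build; their methods give SPORTS1.1 with reads of 15 to 45 nt and 1 mismatch. The deposited values are estimated counts per small RNA subclass, not normalized, a read with several matches being divided. Here the counts of each miRNA hairpin were added over genome-matched and unmatched reads and rounded. CPM used all miRNA reads of a library. A hairpin was fitted if 3 sperm libraries, or 2 libraries in fits with TM4, had 10 reads or more, using edgeR 4.0.16 (R 4.3.3; quasi-likelihood test, TMM, Benjamini-Hochberg adjusted p under 0.05), with 1 fit of the 6 sperm libraries, 1 of the 6 TM4 libraries and 1 of CD sperm with Ctrl TM4. The scripts were tested on simulated data. The p-values set group differences against the spread between these libraries. In sperm that spread is between pools, and in TM4 the labels do not say whether it is between cultures.

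The members and all lists were chosen with earlier results of these data known. The text names the members, the 2 hairpins most like each by Pearson's r in each source, and, from the list of DNA methyltransferase miRNAs, hairpins called with a mean of at least 100 CPM, or otherwise the 2 most abundant. A few other hairpins of that list are also named where they bear on a count. Alternatives were total miRNA reads or clean reads without rRNA as library size, DESeq2 1.42.0, ComBat-seq (sva 3.50.0), other filters, genome-matched reads alone, a replicate block, a fit of the compared groups alone and each library left out. ComBat-seq took the replicate number as the batch, since the study's text names none.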

Additional observations from a re-analysis of the deposited data

How the results depend on the processing

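For each member 68 alternative fits were run over the 5 comparisons. mir-148a kept its call and, where called, its direction in all 68. mir-148b changed its call in 1 (Ang OE against CC with total miRNA reads, -0.35, called) and mir-152 in 1 (Ang OE against Ctrl with ComBat-seq, 0.22, called). Those 2 fits called 226 of 533 and 282 of 547 hairpins. Between HFD and CD no alternative called a member, and leaving out a library gave log2 fold changes of -0.0002 to 0.34 for mir-148a, 0.13 to 0.28 for mir-148b and -0.17 to 0.19 for mir-152.

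Over all hairpins, 0 were called between HFD and CD by edgeR and 8 by DESeq2. Between CC and Ctrl 22 were called, 35 with the replicate block, 35 with ComBat-seq, and 0 to 26 with a library left out: 0 without CC 1 and 0 without CC 2, where 76 and 68 had an unadjusted p below 0.05 in edgeR. The summed family's log2 ratio was 1.09 for Ang OE over Ctrl, 0.81 with total miRNA reads, 0.97 with at least 100 reads required and 0.94 with clean reads without rRNA as library size. For Ang OE over CC it was 1.17, 0.90 with total miRNA reads, 1.02 with clean reads and 1.03 to 1.28 with a library left out. For CD over Ctrl it was 2.99, 1.66 with total miRNA reads, 2.35 with no filter, 3.21 with at least 100 reads and 2.04 to 2.92 with a library left out. The cause of these shifts was not tested. A group left with 1 library is assumed to vary like the others.

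With the replicate number as a block no member's call changed. The deviations of same-numbered libraries correlated at -0.35, -0.24 and 0.07 for the 3 sperm pairs, and in TM4 at -0.02 for Ctrl with CC, -0.10 for Ctrl with Ang OE and 0.16 for CC with Ang OE, so the numbers were not taken as a pairing. Clean reads without rRNA as the denominator lowered every level (mir-148a in CD 19007 reads per 1000000), the order of the sources being the same. The order within TM4 was not always the same. mir-152 was then at 356.6 and 340.9 in Ang OE, above the 328.6 and 327.8 of Ctrl, whereas in CPM they overlapped. mir-148b was then at 424.2 and 369.4 in Ang OE and overlapped with Ctrl, at 448.2 and 413.6. With 2 libraries per TM4 group no exact test can reach 0.05, and 3 against 3 cannot go below 0.1.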
